A study of Homo sapiens with 96 samples.

Results

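EGR1, EGR2, EGR3, IER2, IER3, IER5, SRF, NR4A1 and NR4A2 were followed as mRNAs in A375 cells, an established human melanoma line that carries an activating BRAF mutation. They were chosen by symbol, as the entries of the count table with exactly these names, which gave 9 of 44659 gene entries. The rule itself uses no measured value. The series holds 96 QuantSeq libraries of cytoplasmic RNA in 32 groups of 3. Before the experiment, cells were kept for 18 h either in DMSO alone or with MAPKi, which here means vemurafenib (500 nM, a BRAF inhibitor) together with cobimetinib (500 nM, a MEK inhibitor). The arms of the experiment were vehicle (DMSO), 100 µg/ml cycloheximide (CHX), 25 µM triptolide (T), or CHX 5 min before triptolide (TCHX), each harvested at 0, 1, 3 or 5 h. All groups come from 1 cell line without a genetic change, and each MAPKi group received both kinase inhibitors.

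Immediate-early genes are genes whose transcription starts within minutes of a growth signal without the need for new protein. Many of them are switched on by the kinase ERK, which lies below BRAF and MEK and phosphorylates ELK proteins bound beside serum response factor (SRF) at a DNA element called the CArG box. Their mRNAs are usually made in bursts and degraded quickly. Cycloheximide stops translation elongation, and accumulation of immediate-early mRNAs under such inhibitors is long known as superinduction. Triptolide blocks transcription by RNA polymerase II, so that the mRNA left afterwards reports how fast it is lost. EGR1, EGR2 and EGR3 are zinc-finger transcription factors, NR4A1 and NR4A2 are orphan nuclear receptors, SRF is itself the factor that binds CArG boxes, and IER2, IER3 and IER5 are immediate-early response proteins of less settled function.

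The loci were taken from an annotation of GRCh38. EGR1 lies at chr5:138465479-138469303 (plus strand), IER5 at chr1:181088700-181092900 (plus), SRF at chr6:43171269-43181506 (plus) and NR4A2 at chr2:156324437-156342348 (minus), and no other gene overlaps these 4. EGR2 at chr10:62811996-62819167 (minus) is overlapped on its own strand by a gene known only by an identifier. EGR3, IER2 at chr19:13150411-13154911 (plus), IER3 at chr6:30743199-30744548 (minus) and NR4A1 at chr12:52022832-52059507 (plus) have antisense genes. The sources used here do not give the strand setting of the counting, so reads of these 5 genes and of their overlapping partners may not have been told apart.

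CArG boxes were searched on both strands in the 250 bases before each RefSeq transcription start (GRCh38.p14). RefSeq gave 10 such windows for 6 of the 9 genes, and those of EGR3, IER3 and NR4A2 were not analysed here. EGR1 holds a CArG box 105 and another 83 bases before its start, SRF holds a pair at 30 and 10 bases, and EGR2 holds a single box 71 bases before the third of its starts. The windows of IER2, IER5 and NR4A1 hold none of these letters, and 1.16% of 35116 windows of the same length hold at least 1 box. The 3 windows with a box are shown 5′ to 3′ on the gene's strand as the windows in which a CArG box was found, with the boxes in capitals.
EGR1, chr5:138465229-138465478, plus: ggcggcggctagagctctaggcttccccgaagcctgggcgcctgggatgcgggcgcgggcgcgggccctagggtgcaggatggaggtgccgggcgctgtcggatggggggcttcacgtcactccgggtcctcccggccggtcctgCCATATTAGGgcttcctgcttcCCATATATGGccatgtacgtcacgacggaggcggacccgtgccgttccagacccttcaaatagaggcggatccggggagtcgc
SRF, chr6:43171019-43171268, plus: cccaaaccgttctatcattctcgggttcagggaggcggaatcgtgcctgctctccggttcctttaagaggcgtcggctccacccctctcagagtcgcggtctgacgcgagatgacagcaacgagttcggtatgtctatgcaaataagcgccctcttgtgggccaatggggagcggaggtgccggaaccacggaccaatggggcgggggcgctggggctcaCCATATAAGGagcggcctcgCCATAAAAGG
EGR2, chr10:62816367-62816616, minus: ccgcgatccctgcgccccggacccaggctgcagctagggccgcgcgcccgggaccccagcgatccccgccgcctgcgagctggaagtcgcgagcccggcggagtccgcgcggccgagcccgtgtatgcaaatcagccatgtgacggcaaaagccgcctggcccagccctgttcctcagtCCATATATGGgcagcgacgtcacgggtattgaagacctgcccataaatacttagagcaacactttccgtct
The 3′ UTRs were searched for ATTTA, the core of AU-rich elements that speed up mRNA decay, and for the longer TTATTTATT. ATTTA occurs 10 times in IER5, 6 times in IER3, 4 times in NR4A2, 3 times each in EGR3, SRF and NR4A1, 2 times in EGR2, 1 time in EGR1 and 0 times in IER2, against a median of 2 over 19184 coding transcripts. The 3′ UTRs differ in length, and per kb the median was 1.55. Above it lay 5 of the 9 genes: IER3 (8.14), NR4A1 (5.37), IER5 (3.32), NR4A2 (3.06) and EGR2 (1.65). Below it lay SRF (1.3), EGR3 (1.07), EGR1 (0.818) and IER2 (0). TTATTTATT occurs 3 times in IER5, in overlapping copies, and 1 time in SRF, and 8.6% of these transcripts hold at least 1. The first IER5 copy and the SRF copy are shown with the element in capitals.
IER5, chr1:181092443-181092471, plus: gtgtcttcctTTATTTATTtatttattta
SRF, chr6:43179224-43179252, plus: atggcaccacTTATTTATTgttgcctttt
These letters are descriptions of sequence, and binding was not measured.

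Libraries held 2381351 to 12520154 counts (median 7143396), and no pair of libraries in a group agreed within sampling noise. Of the 9 genes, 8 passed the filter on low counts with 14948 genes in all. EGR2 passed it although it had at most 20 counts in any vehicle library. IER3 did not pass, with 53 counts in all and 0 in 79 libraries. The labels do not say that replicates are separate cultures, so p-values measure the spread between these samples, which may be technical. The study's methods describe identical batches of plates that were harvested at different times, and name 0, 3 and 5 h. Time and batch therefore cannot be told apart in comparisons across times. By this description CHX and vehicle of the same time share a batch, although the labels give no batch. Several comparisons share vehicle libraries. SOX10, MITF, DCT, S100B, S100A1, CSPG4 and NES, 7 of 10 melanoma and neural crest markers, had at least 28.1 CPM in every library, whereas PMEL had a median of 3.42 CPM and MLANA and TYR were at most 3.04 CPM. Of 9 markers of keratinocytes, epithelium, leukocytes, endothelium and fibroblasts, KRT5 and CD3E were at 0 throughout and none exceeded 4.7 CPM. Markers moved with MAPKi in the vehicle arm at 0 h. Of the 9 melanoma and neural crest markers tested DCT, PMEL, SOX10, MITF and S100A1 were higher and CSPG4, NES and S100B lower, and the keratin KRT14 was higher. DCT had medians of 47.3 CPM over the DMSO and 1980 CPM over the MAPKi libraries, and KRT14 of 0 and 1.62 CPM. The part of these markers in the results below was not tested. The inhibitors were also read on a list chosen with earlier results of these data known, which is no independent check. Of its genes downstream of ERK, 5 of 5 fell with MAPKi, where 24% of all genes were lower. They were the feedback genes DUSP6, SPRY2 and SPRY4 and the transcription factors ETV4 and ETV5. The phosphatase DUSP6 had a log2 change of −8.29 (SE 0.38, adjusted p 1.3e-31) and SPRY4 of −8.73 (SE 0.35, adjusted p 3.05e-35).

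Levels are given as CPM, the count of a gene relative to the total of its library after TMM scaling. No molecular identifiers were used, so the floors given below cover counting error only. A QuantSeq read marks a transcript end, so CPM can be set side by side between genes without a correction for length. In the DMSO vehicle arm at 0 h, IER2 had 93.1 ± 9.34 CPM and SRF 89.4 ± 20.1 (SD, n = 3), and their libraries overlapped. EGR1 followed with 46.6 ± 8.68 and IER5 with 42.6 ± 3.23 CPM, which overlapped each other and not SRF. EGR3 had 28.5 ± 1.5 CPM. NR4A2 with 16.3 ± 4.33 and NR4A1 with 8.17 ± 4.44 CPM overlapped each other. EGR2 had 0.911 ± 0.784 CPM and IER3 0.0353 ± 0.0611 CPM, from 22 and 1 counts in the 3 libraries together. The entry IER3 may hold only part of the gene's reads, as described below.

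**Figure D1:**
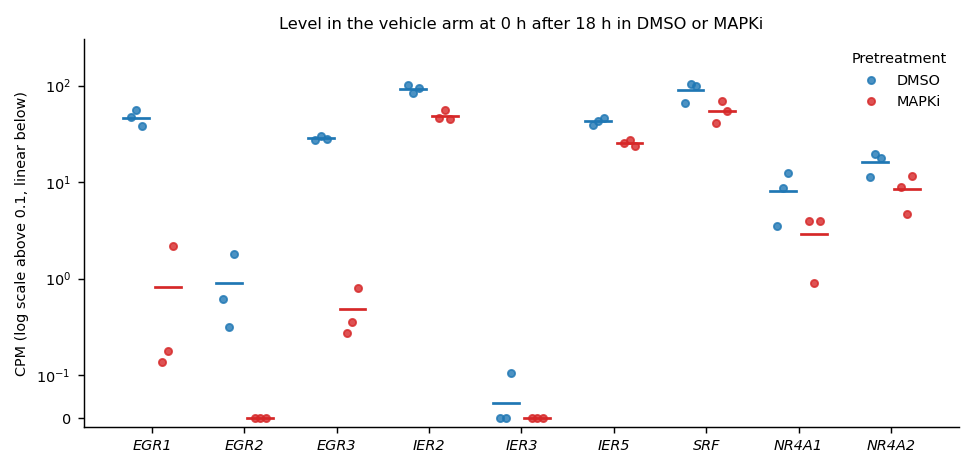
Level of the 9 genes in the vehicle arm at 0 h after 18 h in DMSO (blue) or MAPKi (red), in CPM on an axis that is logarithmic above 0.1 and linear below. Points are the 3 libraries of a group and horizontal bars their mean; EGR1 and EGR3 sit at 46.6 and 28.5 CPM in DMSO and at 0.824 and 0.48 CPM in MAPKi.

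The first comparison asked how the 9 mRNAs stood after 18 h of MAPKi. EGR1 and EGR3 were close to absent and EGR2 had no counts, whereas the means of NR4A2, IER2, IER5 and SRF stood at 0.518, 0.526, 0.599 and 0.616 of those in DMSO. Of the 8 genes tested, 7 were lower in MAPKi and 0 higher, where 24% of all genes tested were lower and 21.9% higher. Their median log2 change was −1.21, against 0.03 over all genes. At 1, 3 and 5 h of vehicle the DMSO mean of SRF was 1.13, 0.935 and 1.6 times that in MAPKi. For IER5 the ratios were 1.14, 1.68 and 1.89. The libraries overlapped at 1 h for both genes and at 3 h for SRF. EGR1, EGR3 and IER2 did not overlap at any vehicle time.

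EGR1, the best known EGR factor and a direct ERK target, had 46.7, 55.2 and 37.9 CPM in the DMSO libraries and 0.137, 0.179 and 2.16 CPM in the MAPKi libraries. The groups were far apart, and 16 of the 18 counts in MAPKi came from the library of replicate 3. The ratio of the means was 56.6, and the log2 change was −5.69 (SE 0.36, adjusted p 1.34e-23), which became −8.19 without the libraries of replicate 3. EGR3 had 27.4, 30.2 and 27.9 CPM in DMSO and 0.274, 0.358 and 0.808 CPM in MAPKi, a ratio of 59.4 and a log2 change of −5.81 (SE 0.38, adjusted p 2.02e-22), or −6.44 without replicate 3. EGR2 had 3, 2 and 17 counts in DMSO and 0, 0 and 0 in MAPKi, so that 17 of the 22 counts came from replicate 3. The adjusted p of EGR2 was 0.000325, and 0.0197 without replicate 3, the highest of alternatives that began at 7.18e-11.

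IER2 had 102, 83.1 and 94.5 CPM in DMSO and 45.9, 55.3 and 45.5 CPM in MAPKi, without overlap. The log2 change of IER2 was −0.93 (SE 0.15, adjusted p 9.92e-08). IER5 had 39.2, 43 and 45.6 against 25.5, 27.4 and 23.7 CPM, also without overlap, and a log2 change of −0.75 (SE 0.17, adjusted p 0.000193). SRF had 66.4, 103 and 98.8 against 41.4, 68.9 and 55 CPM, and 1 library of each group overlapped the other group. For SRF the log2 change was −0.71 (SE 0.20, adjusted p 0.0021). NR4A2 had 11.4, 19.7 and 17.7 against 8.91, 4.65 and 11.7 CPM, which overlapped, with a log2 change of −0.94 (SE 0.30, adjusted p 0.00768). Without the libraries of replicate 2 this call was lost, at −0.52 and an adjusted p of 0.196, the highest of its alternatives, which began at 5.59e-06. NR4A1 had 3.53, 8.61 and 12.4 against 3.98, 0.894 and 3.91 CPM and did not pass, with a log2 change of −1.48 and an adjusted p of 0.0613. Its adjusted p ranged from 3.32e-06 to 0.222 over the alternatives. The lowest value came from the fit without a filter, whose tests had 1880000 degrees of freedom against 59.8 to 77.8 in the reported fits, so that they use almost no spread of the gene's own, and that fit also gives the lower end of other ranges below.

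Related genes were read from lists. The 2 co-repressors that bind EGR proteins were split, with NAB2, itself known as an EGR target, lower by a log2 change of −0.82 (SE 0.19, adjusted p 0.000276) and NAB1 without a call. Among 5 partners of SRF, the ERK-regulated ELK3 was lower (−2.32, SE 0.12, adjusted p 6.15e-28) and the actin-regulated MRTFA higher (0.86, SE 0.25, adjusted p 0.00341), and 3 had no call. The third NR4A receptor, NR4A3, was higher in MAPKi (1.27, SE 0.54, adjusted p 0.0468), from 1.58 ± 1.04 to 3.44 ± 1.58 CPM (SD, n = 3), with overlapping libraries. IER5L, listed as a relative of IER5, was called lower in MAPKi, and EGR4 had 0 counts in both groups. Of 29 further immediate-early genes, 28 were tested, and 14 were lower and 3 higher with a median log2 change of −0.67, where 24% of all genes were lower and 21.9% higher. The higher ones were JUN (3.57), ATF3 (3.47) and FOS (3.00), and MYC (−3.93), KLF4 (−3.48) and TRIB1 (−3.10) fell most.

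Vehicle alone was followed over time. At 1 h in DMSO 0 of the 8 genes passed the test in edgeR against 0 h, as did 0 in DESeq2 and 1 at an unadjusted p under 0.05. Among all genes 0.0201% were higher and 0.0134% lower there. In MAPKi IER5 rose from 25.5, 27.4 and 23.7 to 47.3, 50.9 and 52.3 CPM, without overlap. IER5 changed by 0.98 on the log2 scale (SE 0.17, adjusted p 0.000536) and was the only call among the 8 genes, where 0.0803% of all genes were higher and 0.0334% lower. Over the alternatives its adjusted p ran from 3.66e-07 to 0.105, and the call was lost when replicate 1 (0.0653) or replicate 3 (0.105) was left out. SRF went from 55.1 ± 13.7 at 0 h to 94.5 ± 14.8 at 1 h, 149 ± 35.9 at 3 h and 88.8 ± 12.2 CPM at 5 h in MAPKi vehicle, and from 89.4 ± 20.1 to 107 ± 19.6, 140 ± 8.38 and 142 ± 37.1 CPM in DMSO (SD, n = 3). The 1 h difference in MAPKi was not called for SRF (log2 change 0.78, adjusted p 0.107, with 1.95e-06 to 1 over the alternatives). EGR1 in DMSO vehicle was highest at 3 h, with 120, 115 and 93.4 CPM. In MAPKi vehicle EGR1 was at 0.137 to 3.97 CPM in the 12 libraries of the 4 times. Its log2 change from 0 to 1 h in MAPKi was 1.78 with a 95% interval from 0.69 to 2.87 and was not called (adjusted p 0.316). It was called with DESeq2 (0.0282), without a filter (0.000416) and without replicate 3 (4.13, adjusted p 0.0407), in a range that reached 1. These values come from different harvest times, which cannot be told apart from batches of plates.

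At 0 h, when CHX had been present for only minutes, 0 of the 8 genes differed between CHX and vehicle over both pretreatments in edgeR, 0 in DESeq2 and 0 at an unadjusted p under 0.05. Among all 14948 genes 0% were called in either direction by edgeR, 1 gene by DESeq2 and 441 genes had an unadjusted p under 0.05.

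After 1 h of CHX in DMSO-treated cells, EGR1 and IER2 had already risen. EGR1 had 51.5, 56.2 and 60.6 CPM with vehicle and 240, 261 and 418 CPM with CHX. IER2 had 86.6, 90.9 and 99.8 CPM with vehicle and 179, 189 and 299 CPM with CHX. In both genes every CHX library was above every vehicle library. The log2 change was 2.44 (SE 0.20, adjusted p 6.36e-16) for EGR1 and 1.26 (SE 0.14, adjusted p 5.61e-10) for IER2. These were 2 of the 8 genes tested, whereas 0.0803% of all genes, 12 in number, were higher. EGR2 had 0.769, 0.974 and 1.4 CPM with vehicle and 1.94, 3.5 and 3.94 CPM with CHX, which did not overlap, and IER5 had 57.3 ± 5.23 against 80.7 ± 14.1 CPM (SD, n = 3). Neither passed, with adjusted p of 0.661 and 0.68. EGR3, SRF, NR4A1 and NR4A2 had log2 changes from 0.00 to 0.30 at this time.

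After 1 h of CHX in MAPKi-treated cells, EGR1 had 3.97, 1.74 and 3.2 CPM with vehicle and 3.11, 1.03 and 3.52 CPM with CHX. IER2 had 78, 69.1 and 49.4 CPM with vehicle and 87.5, 66.8 and 72.1 CPM with CHX. The groups overlapped in both genes. In MAPKi 0 of the 8 genes passed in edgeR, 0 in DESeq2 and 1 at an unadjusted p under 0.05, with 0.0602% of all genes called higher. The test of the difference between the pretreatments gave a lower CHX response in MAPKi for EGR1, by a log2 difference of −2.80 (SE 0.47, adjusted p 0.000794), and for IER2, by −1.04 (SE 0.20, adjusted p 0.00662). These are 2 of the 3 genes called lower in this test, or 0.0201% of all genes, and the third is JUN. Without replicate 1 the adjusted p was 0.0875 for both, and without replicate 2 it was 0.162 for EGR1 and 0.956 for IER2, the highest of ranges that began at 1.26e-18 and 4.42e-08. The call for IER2 was also lost in a fit of the compared groups alone (0.507) and with stable-gene scaling (0.067).

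At 3 and 5 h the CHX response in DMSO-treated cells covered all 8 genes tested. All 8 were called higher, where 18.3% of all genes were higher and 13.5% lower, and their log2 changes ran from 0.37 for SRF to 7.49 for EGR2. The median log2 change of the 8 genes was 3.32, against 0.01 over all genes. EGR1 had 120, 115 and 93.4 CPM with vehicle and 4041, 4199 and 4405 CPM with CHX at 3 h. At 5 h it had 69.3, 64.6 and 65 CPM with vehicle and 5514, 5642 and 5417 CPM with CHX. The mean was 38.4-fold higher at 3 h and 83.3-fold higher at 5 h, and the log2 change averaged over both times was 5.82 (SE 0.16, adjusted p 9.06e-46). EGR1 reached the highest level of the 9 genes in any group, above the 3166 CPM of IER2.

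EGR2 started near the limit of detection. It had 2.8, 2.04 and 1.65 CPM with vehicle and 163, 178 and 216 CPM with CHX at 3 h, and 0.9, 0 and 1.61 CPM with vehicle and 354, 362 and 421 CPM with CHX at 5 h. Its mean ratios, 85.9 and 453, were the largest of the 8 genes at both times, and that at 5 h rests on 16 vehicle counts. The log2 change was 7.49 (SE 0.26, adjusted p 1.26e-33). EGR3 was already well expressed and rose less, from 16.8, 20.3 and 25.9 to 137, 126 and 137 CPM at 3 h and from 21.6, 18.5 and 18.5 to 175, 173 and 193 CPM at 5 h. EGR3 changed by 2.93 on the log2 scale (SE 0.17, adjusted p 2.08e-25). The CHX levels of the 3 EGR genes at 5 h lay in the order EGR1, EGR2, EGR3, with no overlap, whereas EGR2 was the lowest of them without CHX.

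IER2 had 142, 133 and 125 CPM with vehicle and 1656, 1694 and 1897 CPM with CHX at 3 h. At 5 h it had 119, 124 and 120 CPM with vehicle and 3362, 3194 and 2942 CPM with CHX. The means were 13.1-fold and 26.2-fold higher with CHX, with a log2 change of 4.21 (SE 0.11, adjusted p 2.83e-48). IER5 rose from 62.2 ± 6.08 to 177 ± 11 CPM at 3 h and from 58 ± 1.48 to 225 ± 15.3 CPM at 5 h (SD, n = 3), without overlap. The log2 change of IER5 was 1.74 (SE 0.11, adjusted p 2.51e-22), less than that of IER2, the other tested gene of the IER name. The IER genes share a name and are not all of a single family.

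NR4A1 and NR4A2 are nuclear receptors that act as transcription factors, and both rose. NR4A1 had 6.16, 9.23 and 21.8 CPM with vehicle and 135, 108 and 99.6 CPM with CHX at 3 h, and 5.4, 5.99 and 5.77 CPM with vehicle and 39.7, 49.5 and 169 CPM with CHX at 5 h. The library of replicate 3 at 5 h was the highest of its group, and the groups did not overlap at either time. The log2 change of NR4A1 was 3.55 (SE 0.41, adjusted p 2.25e-11). NR4A2 had 73.3, 77.7 and 87.7 CPM at 3 h and 124, 150 and 137 CPM at 5 h with CHX, against 15 ± 4.78 and 9.85 ± 3.72 CPM (SD, n = 3) with vehicle. NR4A2 changed by 3.08 on the log2 scale (SE 0.21, adjusted p 6.49e-22).

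SRF had 130, 142 and 147 CPM with vehicle and 154, 181 and 162 CPM with CHX at 3 h, and 117, 125 and 185 CPM with vehicle and 180, 214 and 212 CPM with CHX at 5 h, where the groups overlapped. The log2 change was 0.37 (SE 0.13, adjusted p 0.0271). Leaving out replicate 1 (adjusted p 0.143) or replicate 2 (0.306) ended the call, and the alternatives spanned 0.000703 to 0.306.

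**Figure D2:**
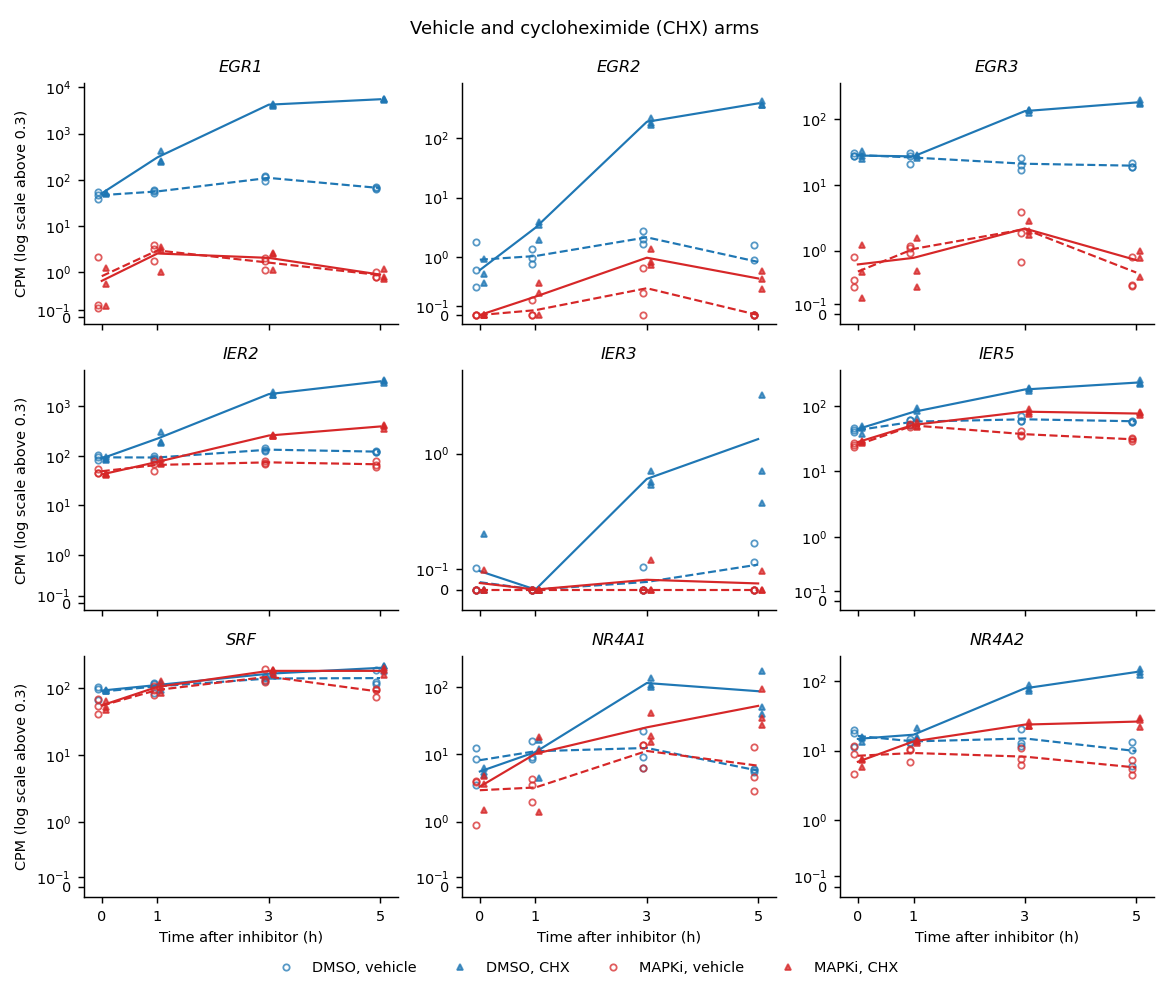
Level of the 9 genes over time with vehicle (open circles, dashed lines) and CHX (triangles, solid lines) after DMSO (blue) or MAPKi (red), in CPM on an axis that is logarithmic above 0.3 and linear below, against hours after the inhibitor. Points are libraries and lines join the means of 3; EGR1 rises to 5524 CPM with CHX in DMSO and its means with CHX in MAPKi from 1 to 5 h are at most 2.55 CPM.

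In MAPKi-treated cells EGR1 and EGR3 were not called with CHX at 3 and 5 h, IER2, IER5, NR4A1, NR4A2 and SRF rose, and EGR2 rose from 0 or a few counts to a few more. Higher were 6 of the 8 genes, where 15.9% of all genes were higher, with a median log2 change of 1.54 against −0.01 over all genes. EGR1 had 1.1, 2 and 1.76 CPM with vehicle and 2.55, 1.11 and 2.49 CPM with CHX at 3 h, and 1, 0.802 and 0.806 against 1.18, 0.706 and 0.793 CPM at 5 h. The groups overlapped at both times, and the log2 change was 0.21 with a 95% interval from −0.60 to 1.02 (adjusted p 0.763). EGR3 had 2.12 ± 1.62 with vehicle against 2.17 ± 0.608 CPM with CHX at 3 h and 0.464 ± 0.293 against 0.717 ± 0.293 CPM at 5 h (SD, n = 3). For EGR3 the log2 change was 0.29 with an interval from −0.41 to 0.98 (adjusted p 0.595). These libraries held 6 to 20 counts of EGR1 and 2 to 33 of EGR3, and a change inside these intervals is not excluded.

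EGR2 had 2, 3 and 0 counts with vehicle and 6, 6 and 11 with CHX at 3 h, and 0, 0 and 0 against 6, 5 and 3 counts at 5 h. It was at least 3.6-fold higher at 5 h against a floor of 3 counts over the 3 libraries of a group together, and the adjusted p over both times was 0.00115. The CHX level was 0.984 ± 0.336 CPM at 3 h (SD, n = 3), beside 0.911 ± 0.784 CPM in the DMSO vehicle arm at 0 h.

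IER2 rose to 263, 250 and 255 CPM at 3 h and to 420, 353 and 397 CPM at 5 h, from 69.7, 79.6 and 72 CPM and 78.5, 64.7 and 58.5 CPM with vehicle. The ratios of the means were 3.47 and 5.8, and the log2 change was 2.17 (SE 0.10, adjusted p 1.81e-30). IER5 rose from 36.9 ± 3.26 to 81.3 ± 7.51 CPM at 3 h and from 30.7 ± 1.68 to 76.2 ± 2.95 CPM at 5 h (SD, n = 3), with a log2 change of 1.22 (SE 0.12, adjusted p 2.61e-14). NR4A2 rose from 8.18 ± 2.46 to 23.8 ± 1.96 and from 5.7 ± 1.41 to 26.3 ± 3.97 CPM (SD, n = 3), with a log2 change of 1.86 (SE 0.21, adjusted p 2.41e-11). In all 3 genes no library of the CHX group overlapped the vehicle group at either time.

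NR4A1 had 13.8, 6.21 and 13.5 CPM with vehicle and 15.3, 41.2 and 18.8 CPM with CHX at 3 h, and 2.86, 4.55 and 12.9 against 27.6, 94 and 35 CPM at 5 h. Its CHX libraries of replicate 2 were the highest at both times, and the groups did not overlap. The log2 change was 2.01 (SE 0.39, adjusted p 2.26e-05). Leaving out replicate 2 gave 1.13 (adjusted p 0.0421) and leaving out replicate 3 gave 2.73 (7.31e-06), and the alternatives spanned 4.57e-31 to 0.0421. SRF had 149 ± 35.9 with vehicle against 182 ± 12.5 CPM with CHX at 3 h, with overlap, and 74.8, 96.9 and 94.6 against 158, 198 and 189 CPM at 5 h, without overlap. Its log2 change was 0.66 (SE 0.13, adjusted p 5.5e-05).

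The difference between the pretreatments was tested as an interaction. The CHX response was smaller in MAPKi for 5 of the 8 genes and larger for 0, where 6.59% of all genes had a smaller and 4.64% a larger response. The log2 difference was −5.62 (SE 0.54, adjusted p 3.4e-13) for EGR1, −2.65 (SE 0.45, adjusted p 7.1e-06) for EGR3 and −2.04 (SE 0.14, adjusted p 1.19e-20) for IER2. It was −1.22 (SE 0.29, adjusted p 0.0019) for NR4A2 and −0.51 (SE 0.16, adjusted p 0.0244) for IER5. At 5 h with CHX the mean in DMSO was 6194-fold that in MAPKi for EGR1, 252-fold for EGR3, 8.12-fold for IER2, 5.21-fold for NR4A2 and 2.96-fold for IER5. The difference for SRF was 0.29 (adjusted p 0.372), and its CHX libraries overlapped between the pretreatments at all 3 later times.

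The remaining pair did not pass. NR4A1 had a difference of −1.54 (SE 0.55, adjusted p 0.0573), in a range of adjusted p from 2.54e-08 to 0.642. EGR2, with 0 counts in the MAPKi vehicle arm at 5 h, had a fitted difference of −4.13 with an adjusted p of 1, and DESeq2 gave −4.34 with an adjusted p of 1.09e-06, the lowest of a range that reached 1. The mean of EGR2 with CHX was 189-fold higher in DMSO than in MAPKi at 3 h and 857-fold at 5 h.

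Some of these calls rested on few libraries. For NR4A2 the call ended without replicate 2 (−0.83, adjusted p 0.0818) or replicate 3 (−1.14, 0.0739), and the alternatives spanned 1.39e-05 to 0.0818. For IER5 it was lost without each replicate in turn (adjusted p 0.0793, 0.127 and 0.292) and with stable-gene scaling (−0.34, 0.166), in a range from 0.000517 to 0.292. Scaling to 36 stable genes took the median log2 change of all genes from 0.01 to 0.14 in DMSO, from −0.01 to 0.28 in MAPKi and from −0.04 to 0.12 for the interaction. It turned the split of all calls from 2733 higher and 2011 lower to 3721 and 861 in DMSO, from 2383 and 2082 to 5425 and 333 in MAPKi, and from 693 and 985 to 1459 and 419 for the interaction. Relative to the median of all genes, the changes of EGR1 (5.81 in DMSO and 0.22 in MAPKi) had the same values under both scalings, and those of SRF were 0.36 in DMSO and 0.67 or 0.69 in MAPKi.

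**Figure D3:**
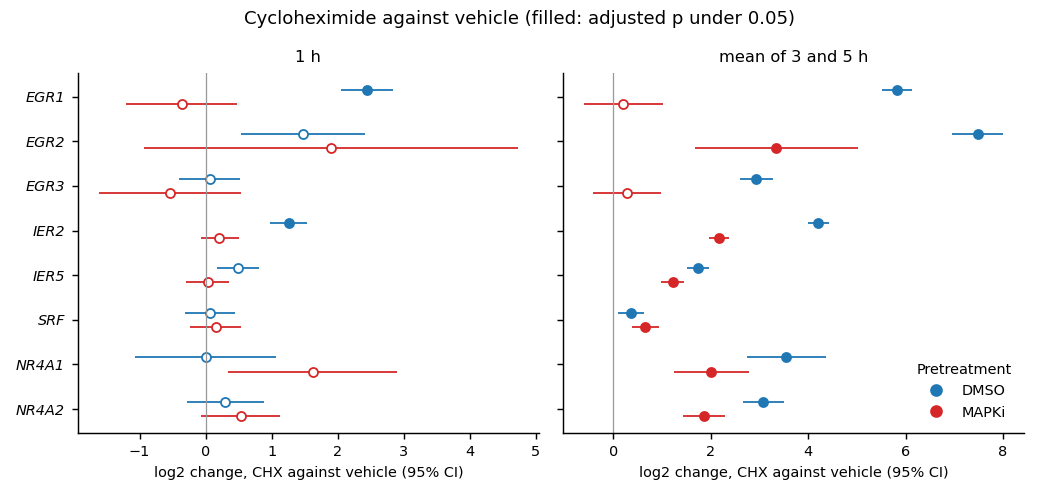
Log2 change of CHX against vehicle for the 8 genes tested, at 1 h (left) and averaged over 3 and 5 h (right), after DMSO (blue) or MAPKi (red). Points are edgeR estimates with 95% intervals, filled where the adjusted p is under 0.05; at 3 and 5 h EGR1 is at 5.82 in DMSO and 0.21 in MAPKi, and SRF at 0.37 and 0.66.

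The related genes were read in the same contrasts. EGR4, the fourth EGR factor, had 0 counts in the DMSO vehicle arm at 3 h and 20.3 ± 1.84 CPM with CHX, at least 167-fold higher against the same floor, and reached 61.2 ± 5.31 CPM at 5 h (SD, n = 3). In MAPKi EGR4 had 0 counts with vehicle and 9 and 7 counts with CHX at 3 and 5 h. IER5L, listed as a relative of IER5, was not called with CHX at 3 and 5 h in DMSO. It was called higher with CHX in MAPKi, and its interaction was not called. NR4A3 rose with CHX to 58.8 ± 8.71 CPM at 5 h in DMSO (log2 change 4.72, SE 0.34, adjusted p 2.17e-20) and to 28.9 ± 5.15 CPM in MAPKi (2.03, SE 0.29, adjusted p 2.49e-08), with a smaller response in MAPKi (−2.70, SE 0.44, adjusted p 3.42e-06). NAB2 rose by 1.48 in DMSO and 1.15 in MAPKi (adjusted p 6.23e-16 and 4.27e-11), and its interaction was not called (−0.33, adjusted p 0.275). Among the partners of SRF, MRTFA rose in both pretreatments (0.72 and 0.66, adjusted p 0.000537 and 0.00105). ELK3 fell in DMSO (−0.58, adjusted p 7.77e-09) and rose in MAPKi (0.22, adjusted p 0.0395). Of the 28 further immediate-early genes tested, CHX raised 25 and lowered 1 in DMSO-treated cells, where 18.3% of all genes were higher and 13.5% lower, and raised 23 and lowered 1 in MAPKi-treated cells, where 15.9% were higher and 13.9% lower. Their median log2 changes were 2.30 and 1.58, and 12 had a smaller and 2 a larger response in MAPKi, against 6.59% and 4.64% of all genes.

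Triptolide was used to follow the loss of mRNA without new transcription. Counts were scaled to 36 stable genes, chosen because their share of the library rose at least 1.1-fold with triptolide at 3 and 5 h in every replicate of both pretreatments, and each library is given as a percent of the mean of the vehicle arm at 0 h of its pretreatment. In bulk RNA, fewer cells and less RNA per cell cannot be told apart. At 3 h in DMSO the mean left ran from 6.44% for IER2 to 79.6% for SRF. At 1 h in DMSO 0 of the 8 genes had fallen in edgeR, 0 in DESeq2, and 2 had an unadjusted p under 0.05, where 0.823% of all genes were lower. IER2 stood at 69.5 ± 5.28% and NR4A2 at 54.8 ± 6.71% (SD, n = 3), with adjusted p of 0.0958 and 0.19. In MAPKi IER2 stood at 34.7, 44.9 and 51.2% and IER5 at 44.1, 63 and 63.2%, and these 2 of the 8 genes were called lower, where 1.57% of all genes were. Their log2 changes were −1.20 (SE 0.17, adjusted p 1.15e-06) and −0.81 (SE 0.18, adjusted p 0.00622). The call for IER5 ended with TMM scaling (adjusted p 0.1), total counts (0.0505), the compared groups alone (0.0669) and without replicate 1 (0.344) or 2 (0.0612), and its lowest value over the alternatives was 0.000325. The difference between pretreatments at 1 h was called for 0 of the 8 genes in edgeR and in DESeq2, with 2 at an unadjusted p under 0.05 and 0% of all genes called higher and 0.0134% lower.

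At 3 and 5 h in DMSO all 8 genes tested were lower than vehicle at 0 h, where 48.7% of all genes were lower, 1.3% higher and the median of all genes was −0.47. IER2 was at 9.8, 6.27 and 3.24% at 3 h and 4.5, 5.14 and 3.82% at 5 h. IER5 was at 9.69, 4.35 and 10.3% and at 3.76, 3.26 and 3.6%. NR4A2 was at 15.6 ± 3.19% and 6.51 ± 6.96% (SD, n = 3). The log2 changes averaged over both times were −4.23 (SE 0.15, adjusted p 5.3e-39) for IER2, −4.25 (SE 0.17, adjusted p 1.12e-35) for IER5 and −3.36 (SE 0.28, adjusted p 6.94e-18) for NR4A2.

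EGR1 was at 18.5, 19 and 19.9% at 3 h and 7.69, 8.89 and 7.27% at 5 h (log2 change −3.01, SE 0.20, adjusted p 1.07e-22). EGR3 was at 25 ± 8.26% and 16.1 ± 3.7% (SD, n = 3; −2.31, SE 0.21, adjusted p 3.56e-16). EGR2 had 0, 2 and 8 counts at 3 h and 0, 0 and 3 at 5 h, too few to follow, with an adjusted p of 0.00127 that became 0.0689 in a fit of the compared groups alone, in a range from 2.29e-05 to 0.0689. NR4A1 was at 61.4 ± 49.6% at 3 h and 31.6 ± 1.66% at 5 h (SD, n = 3), and its call (−1.20, SE 0.52, adjusted p 0.0456) was lost under 4 changes of scaling, tool or initial level and when replicate 1 or 3 was left out, with 9.32e-07 to 0.41 over the alternatives. SRF was at 89.6, 69.7 and 79.6% at 3 h and 69.6, 60.9 and 63.4% at 5 h. The log2 change of SRF was −0.49 (SE 0.16, adjusted p 0.0096) and −0.02 relative to the median of all genes, and with TMM scaling it was −0.02 (adjusted p 0.958, the highest of alternatives that began at 0.000141). This call was also lost with total counts (0.472), against triptolide at 0 h in place of vehicle at 0 h (0.0858) and without replicate 2 (0.214) or 3 (0.0522). TMM scaling turned the split of all calls from 195 higher and 7273 lower to 1863 and 3091.

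In MAPKi 6 of the 8 genes were lower at 3 and 5 h, where 56.1% of all genes were lower and 1.28% higher, with a median of −0.59 over all genes. IER2 was at 11.2, 11.7 and 8.16% at 3 h and 8.71, 8.31 and 10.3% at 5 h (−3.35, SE 0.16, adjusted p 7.49e-32). IER5 was at 6.5 ± 2.17% and 4.88 ± 3.01% (SD, n = 3; −4.03, SE 0.19, adjusted p 2.71e-32), and NR4A2 at 19.7 ± 12.1% and 11.8 ± 8.81% (−2.65, SE 0.30, adjusted p 3.76e-12). SRF was at 56.3, 50.4 and 59.8% at 3 h and 24.5, 37.4 and 46.6% at 5 h (−1.16, SE 0.17, adjusted p 9.89e-09). EGR1 had 0, 3 and 2 counts at 3 h and 0, 0 and 0 at 5 h, from 1, 1 and 16 at 0 h. Leaving out replicate 3, which holds 16 of the 18 counts at 0 h, ended the EGR1 call (adjusted p 0.297, the highest of alternatives that began at 5.72e-08). EGR3 had 2, 2 and 6 counts at 0 h, 0, 0 and 0 at 3 h and 0, 1 and 0 at 5 h. NR4A1, at 59.6 ± 24.9% and 41.7 ± 39.3% (SD, n = 3), was not called (95% interval of the log2 change from −2.33 to 0.34, adjusted p 0.199, with 0.00319 to 0.712 over the alternatives), and EGR2, with 0 counts at 0 and 3 h and 6, 5 and 0 at 5 h, was not called either. TMM scaling turned the split of all calls in MAPKi from 191 higher and 8385 lower to 2927 and 3088.

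At 3 and 5 h the loss of IER2 was smaller in MAPKi than in DMSO, by a log2 difference of 0.87 (SE 0.23, adjusted p 0.0169). This was the only difference called among the 8 genes, where 0.415% of all genes were higher and 2.76% lower. TMM scaling turned this split of all calls from 62 higher and 412 lower to 136 and 193. The call was lost in a fit of the compared groups alone (adjusted p 0.138) and without each replicate in turn (0.0731, 0.0997 and 0.187), in a range from 0.000188 to 0.187. At 1 h the estimates lay the other way, with less IER2 left in MAPKi than in DMSO, and that difference was not called.

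The next comparison asked whether CHX changed the loss, by setting TCHX against T at the same time. With both inhibitors IER2, IER5, NR4A2, EGR1 and EGR3 were kept at higher levels than with triptolide alone. At 1 h in DMSO 0 of the 8 genes passed in edgeR and DESeq2, with 1 at an unadjusted p under 0.05 and 0.0401% of all genes higher. At 1 h in MAPKi IER2 stood at 63, 84.5 and 86.6% against 34.7, 44.9 and 51.2% with triptolide alone, without overlap. It was the only call of the 8 genes, with a log2 change of 0.86 (SE 0.17, adjusted p 0.00313), where 0.341% of all genes were higher and 0.0268% lower. A fit of the compared groups alone (adjusted p 0.218) or of the libraries without replicate 2 (0.262) ended the call, and the alternatives began at 8.83e-08. The difference between pretreatments at 1 h was called for 0 genes of all, and 0 of the 8 had an unadjusted p under 0.05.

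At 3 and 5 h in DMSO 5 of the 8 genes were higher with TCHX than with T, where 28.4% of all genes were higher and the median of all genes was 0.23. IER2 was at 83.5, 64.2 and 62.4% at 3 h and 28.9, 25.3 and 29% at 5 h, against 6.44 ± 3.28% and 4.49 ± 0.657% (SD, n = 3) with triptolide alone. The log2 change was 3.04 (SE 0.14, adjusted p 1.32e-31). IER5 was at 62.1, 49.9 and 40.3% and 17.6, 14.3 and 19.5%, against 8.1 ± 3.26% and 3.54 ± 0.256% (SD, n = 3), a log2 change of 2.46 (SE 0.17, adjusted p 8.11e-22). NR4A2 was at 51 ± 20% and 30.8 ± 5.47% (SD, n = 3; 2.04, SE 0.26, adjusted p 6.37e-10). EGR1 was at 63.2, 47.8 and 52.8% and 21.6, 28.8 and 26.1% (1.58, SE 0.19, adjusted p 4.11e-11), and EGR3 at 42.7 ± 1.54% and 45.4 ± 8.84% (SD, n = 3; 1.13, SE 0.19, adjusted p 5.55e-07). SRF was at 90.1 ± 3.57% and 79.6 ± 12.5% (SD, n = 3; 0.25, adjusted p 0.178), NR4A1 changed by 0.36 (adjusted p 0.615) and EGR2 by 1.15 (adjusted p 0.183), and these 3 were not called.

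The same genes can be set beside the CHX effect without triptolide. In DMSO EGR1 was higher by 5.82 with CHX alone and by 1.58 with CHX under triptolide, on the log2 scale, and IER2 by 4.21 and 3.04. IER5, in contrast, was higher by 1.74 with CHX alone and by 2.46 under triptolide. These contrasts use different libraries and scalings, and the difference between them was not tested.

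In MAPKi 6 of the 8 genes were higher with TCHX, where 41.4% of all genes were and the median of all genes was 0.34. IER2 was at 62.4, 51.3 and 67.7% at 3 h and 32.9, 36.4 and 50.5% at 5 h (2.32, SE 0.15, adjusted p 2.39e-24). IER5 was at 48.5 ± 21.4% and 20.8 ± 4.24% (SD, n = 3; 2.35, SE 0.19, adjusted p 5.57e-19), NR4A2 at 39.7 ± 8.34% and 32.4 ± 0.483% (1.16, SE 0.29, adjusted p 0.000653). SRF was at 58.4, 71.5 and 67.8% and 48.3, 68.6 and 148% (0.76, SE 0.14, adjusted p 7.42e-06), and its library of replicate 3 at 5 h stood above all others. EGR1 had 2, 1 and 13 counts at 3 h and 0, 8 and 2 at 5 h with TCHX, and its call (adjusted p 0.0037) ended without replicate 2 (0.132) or 3 (0.0755), with alternatives from 7.5e-06. EGR3 had 0, 0 and 3 and 8, 6 and 0 counts, and its call (adjusted p 0.00453) was lost without replicate 3, at the upper end of a range from 0.0015 to 1. NR4A1 (0.28, 95% interval from −0.91 to 1.46, adjusted p 0.766) and EGR2 (1.14, interval from −0.83 to 3.12, adjusted p 0.391) were not called. For IER2 the effect of CHX under triptolide was smaller in MAPKi, by −0.72 (SE 0.21, adjusted p 0.0188), where 0.294% of all genes had a smaller and 6.82% a larger effect. This was the only difference called among the 8 genes, and it was lost without replicate 1 (adjusted p 0.0505) or 2 (0.2) and with the compared groups alone (0.112), in a range from 0.000507 to 0.2.

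TMM scaling turned the split of all genes with CHX under triptolide from 4247 higher and 70 lower to 2238 and 1044 in DMSO, from 6194 and 80 to 2825 and 2261 in MAPKi, and from 1019 and 44 to 421 and 132 for the interaction. The calls named for IER2, IER5, NR4A2, EGR1 and EGR3 in DMSO were kept under every alternative tried.

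**Figure D4:**
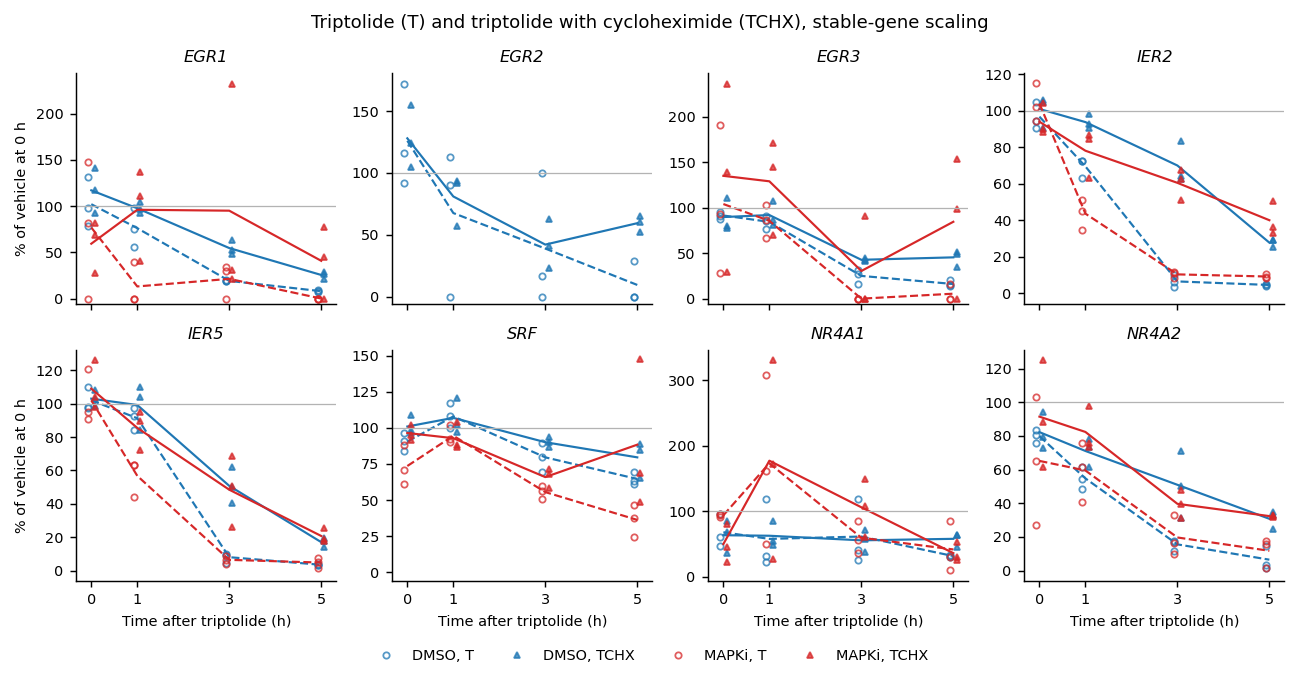
Scaled count of the 8 genes tested as a percent of the mean of the vehicle arm at 0 h, over hours after triptolide, with triptolide alone (T, open circles, dashed lines) or with CHX (TCHX, triangles, solid lines) after DMSO (blue) or MAPKi (red). Points are libraries, lines join the means of 3 and the grey line marks 100%; EGR2 in MAPKi has 0 counts at 0 h and is not drawn, and IER2 in DMSO is at 6.44% with T and 70% with TCHX at 3 h.

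Setting TCHX against CHX at 1 h asked how far levels with CHX were lower when transcription was also blocked. The difference holds ordinary loss without new transcription as well as any part of a CHX response. In DMSO EGR1 had 240, 261 and 418 CPM with CHX and 51.5, 48.9 and 44.1 CPM with TCHX, beside 46.6 ± 8.68 CPM with vehicle at 0 h (SD, n = 3). IER2 had 179, 189 and 299 CPM with CHX and 91.5, 99.4 and 86.5 CPM with TCHX. No libraries overlapped. EGR1 was lower by a log2 change of −2.73 (SE 0.21, adjusted p 1.43e-17), IER2 by −1.33 (SE 0.15, adjusted p 8.97e-10), IER5 by −0.93 (SE 0.16, adjusted p 0.000125) and EGR2 by −1.99 (SE 0.51, adjusted p 0.0306), so 4 of the 8 genes were lower, where 0.843% of all genes were lower and 0.00669% higher. EGR2 had 61 counts with CHX and 16 with TCHX, and its call was lost under 5 alternatives, in a range from 0.000315 to 0.709. In MAPKi 3 of the 8 genes were lower, where 0.87% of all genes were lower and 0.00669% higher. CHX against vehicle at 1 h in MAPKi was called for 0 of the 8 genes, and how much of these falls is a CHX response was not tested. IER5 had 49.3, 46.9 and 57.2 CPM with CHX and 19.8, 24.2 and 24.6 CPM with TCHX (−1.22, SE 0.17, adjusted p 2.47e-07). SRF had 128, 84.3 and 104 against 51.1, 60.7 and 49.2 CPM (−1.05, SE 0.19, adjusted p 0.000209), and IER2 had 75.4 ± 10.7 against 40 ± 5.97 CPM (SD, n = 3; −0.98, SE 0.16, adjusted p 1.33e-05). The call for SRF was lost without replicate 1 (adjusted p 0.0709), the highest of a range that began at 4.09e-12.

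IER3, which encodes a short-lived stress-response protein, was read at the floor of the assay. In DMSO with CHX it had 4, 6 and 5 counts at 3 h and 16, 2 and 8 at 5 h, against 0, 0 and 1 and 1, 0 and 1 with vehicle, and in MAPKi it had at most 1 count in any library. With no filter on low counts the CHX change at 3 and 5 h in DMSO was 3.37 on the log2 scale and did not pass (adjusted p 0.112). The table also holds 5 entries that repeat the name with a suffix. The largest of them, IER3_5, had 640 counts in all, and IER3_4 had 113, against 53 for IER3. Both IER3_5 and IER3_4 passed the filter on low counts. IER3_5 had 1.1 ± 0.292 CPM in the DMSO vehicle arm at 0 h, 5.68 ± 0.707 and 9.68 ± 1.9 CPM with CHX at 3 and 5 h, and at most 0.77 CPM as a group mean in MAPKi (SD, n = 3). In the MAPKi vehicle arm at 0 h IER3_5 had a mean of 0.0449 CPM, and its libraries did not overlap those in DMSO. What sets these entries apart is not given in the sources used here, so they were not joined with IER3. The values of the entry IER3 may therefore hold only part of the gene's reads.

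Across the 32 group means, the genes fell into patterns that can be described by correlation of log2 CPM, in which the points share arms, times and vehicle groups. EGR1 and EGR3 had a Pearson r of 0.96, IER2 and NR4A2 0.97, IER2 and IER5 0.93, and the lowest value among the 28 pairs was 0.53, for EGR3 and IER5. Over all genes that passed the filter, those most like EGR1 were EGR3 (0.960), RNMT (0.959) and SAT1 (0.958), and those most like EGR3 were SLC2A3 (0.983), SPRED1 (0.977) and RFWD3 (0.975). EGR2 was most like IER3_4 (0.939), FOSB (0.936) and FLG (0.934). EGR2 had 0 counts in 36 and IER3_4 in 67 of the 96 libraries, so many of their points lie near the floor. IER2 was most like NR4A2 (0.967), BRD2_2 (0.967) and TIPARP (0.953), and NR4A2 was most like IER2 (0.967), HES1 (0.958) and TIPARP (0.952). IER5 was most like ZCCHC3 (0.972), TGIF1 (0.969) and ZNF574 (0.963), SRF was most like IL7R (0.933), CREB5 (0.930) and JAG1 (0.915), and NR4A1 was most like DEPDC7 (0.911), WHAMM (0.907) and RELB (0.902).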

How the data were processed

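The deposited table holds raw counts of QuantSeq 3′ reads per gene for 96 libraries. Per the submitters' processing notes and the study's methods, the authors trimmed reads with fastp 0.20.1, aligned the forward reads to GRCh38.p13 with HISAT2 2.2.1 and counted those on exons with HTSeq 0.13.5. No molecular identifiers were used, so PCR copies count as reads, and a count near a transcript end depends on the annotated end. Spike-in RNA was not used here.

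Counts were tested as deposited with edgeR 4.0.16 (quasi-likelihood, R 4.3.3), with 1 mean per group over all 32 groups, after filterByExpr had kept 14948 genes, and p-values were adjusted by Benjamini-Hochberg over these genes (threshold 0.05). TMM scaling was used, except in the 14 comparisons that involve triptolide. Those were scaled with size factors of 36 stable genes. A stable gene had over 0.2 CPM in the vehicle arm at 0 h and a share with triptolide at 3 and 5 h that was at least 1.1-fold higher in every replicate, while the initial share was over 10% of the later one. The 3 and 5 h groups were averaged with equal weight. Error intervals of log2 changes are 95% intervals from the fit, and levels are TMM-scaled CPM with SD over 3 libraries. The edgeR step was tested on simulated data. DESeq2 1.42.0, other scalings, no filter, smaller fits, a replicate block and leaving out each replicate were tried as alternatives.

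All 9 listed genes are named. Beside them stand relatives, SRF partners, EGR co-repressors, further immediate-early genes and genes downstream of ERK from lists, with up to 4 of the largest called changes, and for each gene the 3 genes with the highest correlation over 32 group means. The genes and lists were chosen with earlier results of these data known.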

Additional observations from a re-analysis of the deposited data

Results flagged for a closer look

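These 9 values were picked out because the effect of an inhibitor differed between MAPKi and DMSO in a test of that difference (edgeR's quasi-likelihood test with Benjamini-Hochberg adjustment). For CHX against vehicle at 1 h the log2 difference was −2.80 for EGR1 and −1.04 for IER2. At 3 and 5 h it was −5.62 for EGR1, −2.65 for EGR3, −2.04 for IER2, −1.22 for NR4A2 and −0.51 for IER5. For the loss under triptolide at 3 and 5 h the difference was 0.87 for IER2, and for CHX under triptolide it was −0.72 for IER2. The calls for EGR1, EGR3 and IER2 with CHX at 3 and 5 h were kept under every alternative tried, and each of the other 6 was lost under at least 1. The groups hold 3 libraries, so no library was tested for standing apart from its group.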

How the results depend on the processing

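Of the 68 calls among 192 results for the 8 genes tested, 49 kept their call and direction under every alternative tried, and no call changed direction. Of the 1784 alternative values, 1700 stayed on the same side of the threshold, 53 lost a call and 31 gained one. The cause was not tested, except that leaving out libraries or groups gives a smaller fit and that dropping the filter took the degrees of freedom to 1880000. The number of the genes called moved by over 1.5 times as follows. For vehicle at 1 h in MAPKi, 1 became 2 with DESeq2, 3 without a filter and 2 with the replicate block, and 0 to 1 with a replicate left out. For CHX at 1 h in MAPKi, 0 became 1 without a filter. For the interaction of MAPKi and CHX, 2 at 1 h became 1 with the compared groups alone, 1 with stable-gene scaling and 0 to 2 with a replicate left out, and 5 at 3 and 5 h became 3 to 4 with a replicate left out. For triptolide at 1 h, 0 in DMSO became 2 without a filter, and 2 in MAPKi became 1 with TMM, 1 with total counts, 1 with the compared groups alone and 1 to 2 with a replicate left out. For the interaction of MAPKi and triptolide at 3 and 5 h, and for that of MAPKi and CHX under triptolide, 1 became 2 without a filter, 0 with the compared groups alone and 0 to 1 with a replicate left out. For CHX under triptolide at 1 h in MAPKi, 1 became 2 with DESeq2, 0 with the compared groups alone and 0 to 1 with a replicate left out. For triptolide on top of CHX in MAPKi, 3 became 5 with DESeq2 and 6 without a filter.

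Replicate numbers were not taken to pair the samples, since in no comparison did every pair of same-numbered libraries correlate over 0.1. Deviations of same-numbered libraries correlated between −0.201 and 0.23 over 270 pairs (median 0.0162), 44 pairs exceeded 0.1, and 124 correlated best with their own number, where each had 3 to correlate with. This share was higher for CHX at 3 and 5 h in DMSO (14 of 18) and for its interaction with MAPKi (48 of 84). These shares are a hint of pairing. Same-numbered libraries also share a prefix in the column headers, whose meaning is not stated. The study's own model of its index of translation-dependent decay included the replicate. Among the fits here, pairing was modelled only in the replicate block. The block added calls for SRF in vehicle at 1 h in MAPKi (adjusted p 0.0489) and for NR4A1 in the interaction with CHX at 3 and 5 h (0.0284), within the ranges given with these results, and it ended none.

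The number of all genes called moved by over 1.5 times in 21 of 24 comparisons. At 1 h, vehicle went from 5 to between 1 and 34 in DMSO and from 17 to between 3 and 38 in MAPKi, CHX from 12 to between 4 and 38 in DMSO and from 11 to between 2 and 190 in MAPKi, and their interaction from 3 to between 0 and 232. Triptolide at 1 h went from 132 to between 41 and 188 in DMSO and from 241 to between 45 and 412 in MAPKi, with an interaction from 2 to between 0 and 17. CHX under triptolide at 1 h went from 6 to between 0 and 24 in DMSO and from 55 to between 10 and 119 in MAPKi, with an interaction from 0 to up to 13, and triptolide on top of CHX from 127 to between 51 and 158 and from 131 to between 53 and 172. MAPKi alone reached 10311 over all 4 vehicle times, from 6865, and CHX at 0 h reached 3 from 0. At 3 and 5 h the interaction with CHX fell from 1678 to as few as 767, triptolide to 4602 of 7468 in DMSO and to 5311 of 8576 in MAPKi, its interaction from 474 to 113, CHX under triptolide in DMSO from 4317 to 2831 and its interaction from 1063 to 400. Of the splits, vehicle at 1 h went from 3 higher and 2 lower to 2 and 4 in DMSO, and from 12 and 5 to 8 and 9 in MAPKi, with stable-gene scaling, which also took CHX at 1 h in MAPKi from 9 and 2 to 39 and 1. With total counts, triptolide at 3 and 5 h split into 651 and 3951 in DMSO and 674 and 4637 in MAPKi.

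Depth limits EGR2 and IER3, with few counts per library outside CHX in DMSO, and EGR1 and EGR3 in MAPKi.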
